A study of Mus musculus with 13 samples.

Results

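Double-negative (DN) thymocytes, which carry neither CD4 nor CD8, were compared with double-positive (DP) thymocytes, which carry both, by the levels of their microRNAs (miRNAs). The cells of both groups were sorted by flow cytometry from the thymus of C57BL/6 mice, with no treatment or transgene named, and each group has 3 arrays of separate biological replicates. The miRNAs described are the 239 of the 1122 mouse miRNAs on the array that the scanner software marked as detected on all 3 arrays of DN or on all 3 arrays of DP. Of these, 176 were detected on all 6 arrays, 10 on all 3 arrays of DN only and 53 on all 3 arrays of DP only. The series also holds 3 arrays each of early-stage (ES) and late-stage (LS) T-cell acute lymphoblastic leukaemia (T-ALL) and 1 array of the T-ALL line M295, and the DN and DP cells are its normal thymocytes. The labels describe the DN sort by the lack of CD4 and CD8 alone, and name neither further markers that would remove other CD4-negative CD8-negative cells of the thymus nor markers that would divide the DN stages. How many mice gave each sample is not given in the sources used here.

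Thymocytes pass from the DN to the DP stage after the T-cell receptor beta chain has been rearranged and tested, a step called beta-selection that comes with a burst of division. DP cells then rearrange the alpha chain, stop dividing and are selected on how their receptor binds self peptides. A miRNA pairs through its seed, bases 2 to 8 from its 5′ end, with target messenger RNAs and lowers their translation or stability, so miRNAs with the same seed share many targets. miR-181a is known for its high level in DP thymocytes, where it lowers several phosphatases and so raises the sensitivity of the T-cell receptor. The miR-17~92 cluster is known for promoting survival and growth of early lymphocytes, and the miR-15/16 family for restraining the cell cycle and BCL2.

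Sequences from RefSeq (mouse build GRCm38.p6) matched 168 of the 239 miRNAs by exact name. The first set shows members of the families the comparison turned on, with the seed in capitals. The miR-181 and miR-15/16 sequences show that members with one seed did not all differ between the stages, and the others are miRNAs that were higher in DN.
miR-181a-5p: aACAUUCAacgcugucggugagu
miR-181b-5p: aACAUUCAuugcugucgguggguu
miR-181c-5p: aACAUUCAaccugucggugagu
miR-181d-5p: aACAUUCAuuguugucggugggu
miR-15a-5p: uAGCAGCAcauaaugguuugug
miR-15b-5p: uAGCAGCAcaucaugguuuaca
miR-16-5p: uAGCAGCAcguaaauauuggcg
miR-322-5p: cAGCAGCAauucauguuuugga
miR-18a-5p: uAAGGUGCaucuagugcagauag
miR-19a-3p: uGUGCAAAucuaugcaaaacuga
miR-29b-3p: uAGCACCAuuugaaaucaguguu
miR-101a-3p: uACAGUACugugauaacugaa
miR-101b-3p: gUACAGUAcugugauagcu
miR-144-3p: uACAGUAUagaugauguacu

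The second set holds the members with the hexamer GUGUGU, in capitals here, whose values are described further on.
miR-672-5p: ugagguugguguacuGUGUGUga
miR-32-3p: caauuuaGUGUGUGUgauauu
miR-466j: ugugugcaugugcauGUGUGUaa
miR-294-3p: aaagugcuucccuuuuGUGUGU
miR-669n: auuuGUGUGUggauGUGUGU
miR-206-3p: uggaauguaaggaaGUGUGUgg
miR-3082-5p: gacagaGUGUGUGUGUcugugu
miR-1187: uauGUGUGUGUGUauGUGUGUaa
miR-539-5p: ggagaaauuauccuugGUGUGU
miR-574-5p: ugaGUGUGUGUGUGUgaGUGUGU

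The software detected 234, 222 and 192 mouse miRNAs on the 3 DN arrays and 240, 268 and 243 on the 3 DP arrays. The means were 216 ± 21.6 in DN and 250.3 ± 15.4 in DP (SD, n = 3 arrays each), a difference of 34.33 with groups that did not overlap (exact permutation test, two-sided, p = 0.1, the smallest p that 3 against 3 arrays allow). DN 3, the array with the fewest detected miRNAs of the 6, also had the noisiest negative controls of the 6, with an SD of 7.0 intensity units against 5.21 to 5.49 on the others. No spot was saturated on any array.

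Values below are log2 scaled intensities. On this scale 0 is the 75th percentile of each array's signal over the 108 miRNAs that stood well above background on each of the 12 primary arrays, and -7.59 is the common floor under which signals were not told apart. Differences are DP minus DN, with the standard error (SE) of a limma fit over the 12 arrays of DN, DP, ES and LS, and "called" stands for a Benjamini-Hochberg adjusted p under 0.05 over the 268 tested miRNAs. A fold written as "at least" is a lower bound with respect to background only, given where no array of the dimmer group was well above background. It does not allow for the spread between arrays or for other settings, so it is not a confidence limit. The level of one miRNA is not set against that of another, since probes differ in brightness. In sorted bulk cells, fewer cells of a type and less RNA per cell cannot be told apart.

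In the 12-array fit with the main scaling, more miRNAs were called higher in DP than in DN. The order turned with scaling over all mouse miRNAs (36 in DP, 37 in DN) and in the fit on the DN and DP arrays alone (86 and 90). Of the 268 tested, 79 were called (29.5%), 52 higher in DP (19.4%) and 27 higher in DN (10.1%). Among the 239 members, 78 were called, 52 higher in DP and 26 higher in DN. The 176 members detected on all 6 arrays were split more evenly, with 25 higher in DP and 20 higher in DN. Of those detected on all 3 arrays of DP only, 27 of 53 were called, and of those detected on all 3 arrays of DN only, 6 of 10. Each was called in the direction that the choice of members favours. The called differences of members ran from 1.47-fold to 49.4-fold, 54 of them at least 2-fold and 23 at least 4-fold.

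The split between the directions depended on the scaling. With the arrays scaled over all mouse miRNAs instead of the 108, 36 were higher in DP and 37 in DN, so 49.3% of calls were higher in DP against 65.8%, and the median difference over the tested miRNAs went from -0.10 to -0.38. The fit takes its spread from all 4 groups, and replicate arrays of the leukaemias differed more than those of thymocytes. Over the 176 members detected on all 6 arrays, the median SD was 0.110 in DN and 0.127 in DP, against 0.649 in ES and 0.315 in LS. Fitted on the 6 DN and DP arrays alone, 176 of the 268 were called (65.7%), 86 higher in DP and 90 higher in DN, and these included all 79. For 191 of the 268 tested (71.3%), and 183 of the 239 members, the 3 DN and 3 DP arrays did not overlap, and of the 191 the DP arrays were the higher for 90 and the DN arrays for 101. Within slide 2, with 2 arrays each of DN and DP, 139 were called. Slide 1 held 1 DN and 1 DP array, so a fit on it takes its spread from the leukaemia arrays alone. With slide as a block 78 were called. The number higher in DN was 17 without DN 1, 13 without DN 2, 16 without DN 3, 17 without DP 1, 13 without DP 3 and 53 without ES 3.

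**Figure D1:**
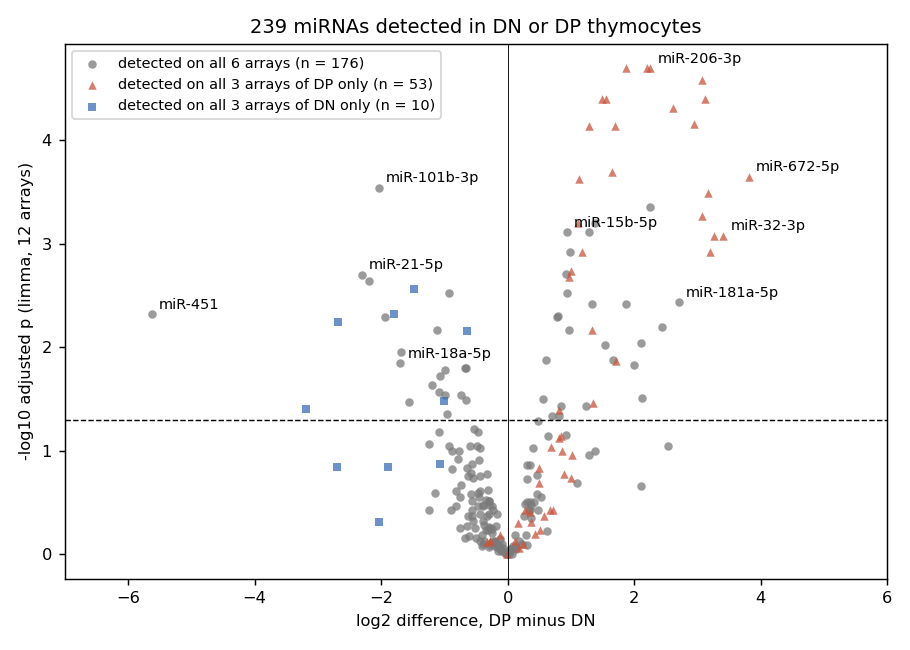
Each point is 1 of the 239 miRNAs, placed by its log2 difference (DP minus DN, x axis) and the -log10 of its adjusted p in the limma fit of 12 arrays (y axis), with the dashed line at an adjusted p of 0.05. Of the 176 miRNAs detected on all 6 arrays (grey circles), 25 lie above the line on the DP side and 20 on the DN side, and miR-451 lies farthest to the left at -5.63.

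The miR-181 family rose in DP through 3 of its 4 members. miR-181a-5p, the family's best studied member in thymocytes, read -0.98, -0.83 and -0.68 on the DN arrays and 1.80, 1.88 and 1.96 on the DP arrays. It was 6.54-fold higher in DP (log2 difference 2.71, SE 0.54, limma adjusted p = 0.00364). The lowest DP array stood far above the highest DN array, and within slide 2 the difference was 2.67.

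miR-181b-5p, made from the same pair of hairpin clusters as miR-181a-5p, read -1.06, -0.94 and -0.92 in DN and 0.33, 0.35 and 0.40 in DP. Its difference was 1.33 (SE 0.27, limma adjusted p = 0.00384). miR-181c-5p, made from another locus, read -2.86, -2.78 and -2.84 in DN and -1.89, -1.83 and -1.92 in DP, a difference of 0.94 (SE 0.18, limma adjusted p = 0.00295). Neither miRNA's groups overlapped. miR-181d-5p, which has the same seed, read -2.78, -2.60 and -2.67 in DN and -2.72, -2.58 and -2.57 in DP. Its groups overlapped, and its difference of 0.06 had a 95% interval from -0.48 to 0.59. The opposite strand of one miR-181a hairpin, miR-181a-1-3p, read -4.01, -3.74 and -3.64 in DN and -1.54, -1.54 and -1.57 in DP, a difference of 2.25 (SE 0.31, limma adjusted p = 0.000438). The hairpins of miR-181a and miR-181b lie side by side at chr1:137966455-137966718 and again at chr2:38852735-38853918 within Nr6a1 (GRCm38.p6). The values of miR-181a-5p and miR-181b-5p thus cannot be given to one locus, while miR-181a-1-3p has its only RefSeq locus on chromosome 1. The family's median difference was 1.14, beside -0.10 over all tested miRNAs. Scaled over all mouse miRNAs, the call of miR-181c-5p was lost (difference 0.65, adjusted p = 0.146), and those of miR-181a-5p and miR-181b-5p were kept.

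In the miR-15/16 family, which restrains cyclins and BCL2, 4 of 5 members were called higher in DP, where 19.4% of the tested miRNAs were. miR-15b-5p read 1.75, 1.85 and 1.73 in DN and 2.77, 2.77 and 2.59 in DP (difference 0.94, SE 0.14, limma adjusted p = 0.000772). miR-16-5p read 1.19, 1.51 and 1.38 in DN and 2.19, 2.38 and 2.27 in DP (0.92, SE 0.16, limma adjusted p = 0.00197). The groups of both miRNAs were clearly apart, each at close to 1 on the log2 scale. miR-15a-5p differed by 0.98 and miR-195-5p by 1.53, both called, and neither had overlapping groups. miR-322-5p, with the seed of miR-15 and miR-16, read -4.49, -4.38 and -4.57 in DN and -4.68, -4.63 and -4.98 in DP, a difference of -0.29 that was not called (limma adjusted p = 0.846).

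Passenger strands made from 3 hairpins of this family were detected on all 3 arrays of DP and stood at the floor in DN. miR-16-1-3p was at -7.59 on each DN array and at -6.50, -6.21 and -6.20 on the DP arrays, at least 2.17-fold higher. miR-16-2-3p was at least 2.50-fold higher and miR-195-3p at least 2.59-fold higher, also with each DN array at the floor. The hairpins of miR-15b and miR-16-2 lie together in Smc4 at chr3:69009772-69009996, and 3 of the 4 members made there were called higher in DP. The other was the passenger strand miR-15b-3p, which was detected on all 6 arrays at -6.68, -6.29 and -6.29 in DN and -6.41, -6.22 and -6.37 in DP, a difference of 0.09. Under scaling over all mouse miRNAs, 3 family members were no longer called, with differences of 0.64 for miR-15b-5p (adjusted p = 0.147), 0.62 for miR-16-5p (adjusted p = 0.121) and 0.68 for miR-15a-5p (adjusted p = 0.101). With normexp background correction, miR-195-5p differed by only 0.11 (adjusted p = 0.593).

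The miR-30 family had 3 of 5 members called higher in DP, where 19.4% of the tested miRNAs were. Its 3 members with a matched sequence, miR-30a-5p, miR-30c-5p and miR-30e-5p, share one seed. miR-30e-5p read -1.67, -1.46 and -1.55 in DN and -0.74, -0.63 and -0.91 in DP (0.80, SE 0.17, limma adjusted p = 0.00498). miR-30c-5p differed by 0.79 and miR-30d-5p by 0.56, both called. For these 3 the groups did not overlap. miR-30b-5p differed by 0.64 with an adjusted p of 0.0715 in limma, and miR-30a-5p by -0.04 with overlapping groups. The passenger strand miR-30e-3p was also called, at 0.61. Hairpins of miR-30c and miR-30e lie within Nfyc at chr4:120769534-120772697. Scaled over all mouse miRNAs, the 3 family calls were lost, with differences of 0.50 for miR-30e-5p (adjusted p = 0.241), 0.49 for miR-30c-5p (adjusted p = 0.243) and 0.26 for miR-30d-5p (adjusted p = 0.463). The call of miR-30d-5p was also lost without any 1 of the 6 thymocyte arrays, with adjusted p values from 0.0526 to 0.114.

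The let-7 family, known for its rise with differentiation and its control of Myc and Ras, had 0 of 8 members called. Over all tested miRNAs, 29.5% were called. Differences ran from -0.48 for miR-98-5p to 0.47 for let-7b-5p, with a median of 0.33. let-7a-5p read 0.98, 1.15 and 0.96 in DN and 1.38, 1.39 and 1.37 in DP, so its groups did not overlap, at a difference of 0.35 (limma adjusted p = 0.135). Fitted on the 6 thymocyte arrays alone, 5 of the 8 were called higher in DP and 1 higher in DN, close to the 65.7% called over all tested miRNAs.

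miR-26 and miR-101, which both target the chromatin silencer Ezh2, differed in opposite directions. miR-101b-3p read -4.19, -4.02 and -4.17 in DN and -6.17, -5.84 and -6.48 in DP, 4.10-fold higher in DN (difference -2.04, SE 0.27, limma adjusted p = 0.000286). Its groups lay well apart, and it was called under each of the 32 other settings. miR-101a-3p read -4.99, -4.67 and -5.05 in DN and stood at the floor on each DP array, at least 6.08-fold higher in DN (limma adjusted p = 0.00572). Its call was lost with no filter on low values (adjusted p = 0.0541).

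miR-26b-5p was higher in DP by 0.85 (SE 0.27, limma adjusted p = 0.0366). Its call was lost without any 1 of the 6 thymocyte arrays, with adjusted p values from 0.0661 to 0.132, and with scaling over all mouse miRNAs (0.164). miR-26a-5p read -0.96, -0.74 and -0.83 in DN and 0.49, 0.61 and 0.51 in DP. Its groups did not overlap, yet its difference of 1.38 had an SE of 0.57 in the 12-array fit and was not called (limma adjusted p = 0.0991). Its adjusted p was 0.000113 when the 6 thymocyte arrays were fitted alone.

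The miR-17~92 cluster was higher in DN, with 4 of 9 members called, where 10.1% of the tested miRNAs were called higher in DN. miR-18a-5p read -0.66, -0.61 and -0.75 in DN and -2.29, -2.29 and -2.52 in DP, 3.23-fold higher in DN (difference -1.69, SE 0.44, limma adjusted p = 0.0143). miR-19a-3p read 0.45, 0.59 and 0.41 in DN and -0.67, -0.53 and -0.92 in DP (-1.19, SE 0.34, limma adjusted p = 0.0233). The groups of both lay apart. miR-17-3p differed by -1.08, and miR-20a-3p was at the floor on each DP array and at least 2.64-fold higher in DN, both called.

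The other 5 members of the cluster had negative differences without being called. miR-17-5p differed by -1.24, miR-20a-5p by -1.08, miR-19b-3p by -0.93, miR-18a-3p by -0.77 and miR-92a-3p by -0.29. miR-20a-5p, which shares its seed with miR-17-5p, read 1.93, 2.01 and 1.82 in DN and 0.89, 0.91 and 0.73 in DP, and its adjusted p in limma was 0.0654. For all 9 members the DN arrays lay above the DP arrays, where 37.7% of the tested miRNAs did so, and all 9 were called when the 6 thymocyte arrays were fitted alone, where 65.7% of the tested were called in either direction. The 6 hairpins lie together at chr14:115043671-115044506, and the median difference over the members was -1.08. Copies of miR-19b and miR-92a also lie in the miR-106a cluster on chromosome X, so their mature forms cannot be given to one locus. The call of miR-18a-5p was lost without DP 3 (adjusted p = 0.0574). Those of miR-17-3p and miR-19a-3p were lost with scaling over all mouse miRNAs (adjusted p = 0.0849 and 0.0757). miR-17-3p also lost its call without any 1 of the 6 thymocyte arrays (adjusted p from 0.0572 to 0.0871), and miR-19a-3p without any 1 of DN 1, DN 2, DN 3, DP 1 or DP 3 (0.0543 to 0.0852).

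The related miR-106b and miR-106a clusters had 0 of 8 members called, where 29.5% of the tested miRNAs were called. Their differences ran from -0.56 to 0.30. The 6-array fit called 1 of the 8 higher in DP and 4 higher in DN, where 65.7% of the tested were called in either direction. miR-106b-5p, with the seed of miR-17-5p, read 0.26, 0.32 and 0.18 in DN and -0.12, -0.04 and -0.44 in DP, a difference of -0.45 (limma adjusted p = 0.122). The clusters of miR-23, miR-27 and miR-24, which bear on helper T-cell differentiation, had 0 of 5 called. The differences of these 5 ran from -0.79 for miR-24-3p to -0.10 for miR-23a-3p, and the 6-array fit called 3 of them higher in DN.

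In the miR-29 family, known for targeting DNA methyltransferases and collagens, 1 of 3 members was called, where 29.5% of the tested miRNAs were called. miR-29b-3p read -1.62, -1.60 and -1.74 in DN and -3.16, -3.0 and -3.86 in DP, 3.23-fold higher in DN (-1.69, SE 0.41, limma adjusted p = 0.0110). The groups did not overlap, and DP 3 was the lowest array. Without DP 3 the difference was -1.43 and the call was lost (adjusted p = 0.0561). miR-29c-3p differed by -1.15 and miR-29a-3p by -0.88, neither called (limma adjusted p = 0.252 and 0.149), and in both the DN arrays lay above the DP arrays.

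**Figure D2:**
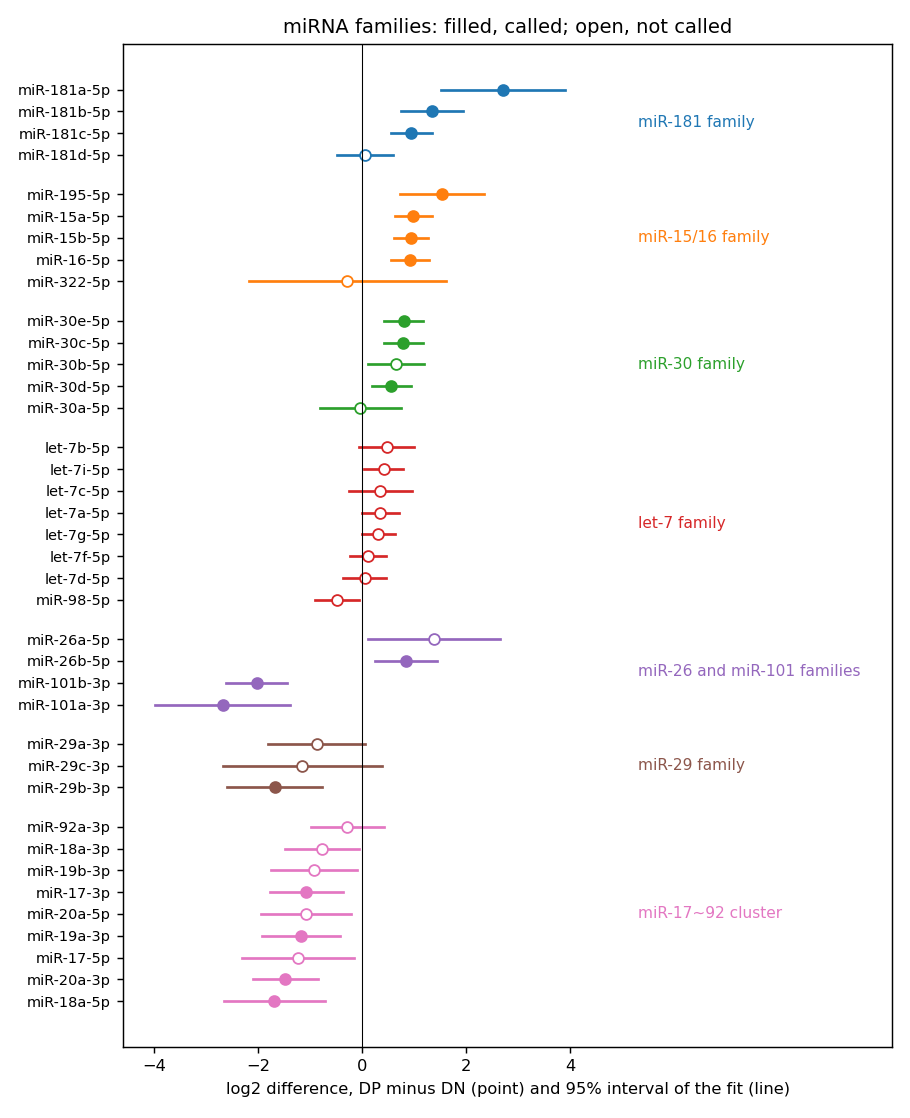
Log2 differences (DP minus DN, points) with the 95% interval of the 12-array limma fit (lines) for the members of 7 families or clusters, filled where called. The miR-181, miR-15/16 and miR-30 families hold called members on the DP side, the miR-29 family and miR-17~92 cluster on the DN side, and the let-7 family holds none. With scaling over all mouse miRNAs, the filled miR-30 members, miR-15a-5p, miR-15b-5p, miR-16-5p, miR-181c-5p, miR-26b-5p, miR-17-3p and miR-19a-3p are not called.

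miRNAs that respond to lymphocyte activation had 1 of 4 members called, where 29.5% of the tested miRNAs were called. miR-21-5p, which rises on T-cell receptor signalling, read 1.30, 1.41 and 1.12 in DN and -0.94, -0.89 and -1.27 in DP. It was 4.96-fold higher in DN (difference -2.31, SE 0.41, limma adjusted p = 0.00199), and each DN array was well above each DP array. miR-155-5p differed by -0.41, miR-146b-5p by -0.39 and miR-212-3p by -0.57. None of these 3 was called. For all 4 the DN arrays lay above the DP arrays, where 37.7% of the tested miRNAs did so. The 6-array fit called 3 of the 4 higher in DN, where 65.7% of the tested were called in either direction.

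The pair of miRNAs known to mark mature lymphocytes was not called. miR-150-5p, which targets Myb, read -4.94, -4.69 and -4.11 in DN and -2.58, -2.46 and -2.37 in DP, a difference of 2.11 with an SE of 1.19 in the 12-array fit (limma adjusted p = 0.218). miR-342-3p read -3.96, -4.12 and -3.69 in DN and -4.76, -4.77 and -4.87 in DP, a difference of -0.87 (limma adjusted p = 0.101). In both the groups did not overlap, and the 6-array fit gave adjusted p values of 0.000956 for miR-150-5p and 0.00223 for miR-342-3p. miR-449a-5p, of the miR-34 and miR-449 family that slows the cell cycle, read -5.94, -5.93 and -5.74 in DN and -3.71, -3.63 and -3.90 in DP (2.12, SE 0.64, limma adjusted p = 0.0308). Its call was lost without any 1 of the 6 thymocyte arrays, with adjusted p values from 0.0658 to 0.0871, and with scaling over all mouse miRNAs (0.121).

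The largest difference of all members was that of an erythroid miRNA. miR-451, which red cell precursors make in great amount, read -0.06, -0.22 and -0.50 in DN and -5.49, -5.72 and -6.45 in DP, 49.4-fold higher in DN (difference -5.63, SE 1.18, limma adjusted p = 0.00476). miR-144-3p, made from the same transcript, read -4.16, -4.47 and -4.57 in DN and stood at the floor on each DP array, at least 8.63-fold higher in DN (limma adjusted p = 0.0394). Both groups were far apart for both miRNAs. The call of miR-144-3p was lost without any 1 of the 6 thymocyte arrays (adjusted p from 0.0845 to 0.106), without LS 1 (0.0507) or with slide as a block (0.0533). Of the 4 erythroid names on the array, 2 were detected in DN, and their summed scaled signal was 0.762 to 1.02 on the DN arrays against 0.0270 to 0.0378 on the DP arrays. miR-486-3p and miR-144-5p were detected on none of the 6 arrays.

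Markers of other cells that a CD4-negative CD8-negative sort can hold also read higher on the DN arrays. miR-223-3p, of the myeloid lineage, read -4.89, -5.31 and -5.08 in DN and -6.79, -7.28 and -7.31 in DP, a difference of -2.03 that was not called (limma adjusted p = 0.489, SE 1.98). The summed signal of the 2 myeloid names was 0.0303 to 0.0389 in DN and 0.0115 to 0.0142 in DP. miR-126-3p, of endothelial and early blood cells, read -4.63, -4.65 and -4.69 in DN and -6.69, -6.50 and -6.60 in DP, at least 3.84-fold higher in DN (limma adjusted p = 0.00512), and the sum of the 2 endothelial names was 0.0439 to 0.0457 against 0.0148 to 0.0162. The groups of both miRNAs were apart. No listed marker of stromal cells, of epithelial cells, of liver, muscle or brain, or of blood progenitors was detected on all 3 arrays of either group. For muscle the list held miR-1a, miR-133a and miR-133b. It did not hold miR-206-3p, also known from muscle, which was detected on all 3 arrays of DP only. The part of these other cells in the miRNAs higher in DN, such as miR-21-5p, the miR-29 and miR-101 families and the miR-17~92 cluster, was not tested.

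miR-142, which blood cells of all lineages make, was detected on all 6 arrays in both arms. miR-142-3p read 2.12, 2.37 and 2.37 in DN and 2.71, 2.87 and 2.37 in DP, a difference of 0.37 that was not called (limma adjusted p = 0.334). miR-128-3p, studied in T-cell leukaemia, differed by 0.38 (limma adjusted p = 0.448). DP 3 stood level with DN 2 and DN 3 for miR-142-3p at this precision. The proteins CD4 and CD8, by which the stages were sorted, are not measured on these arrays.

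**Figure D3:**
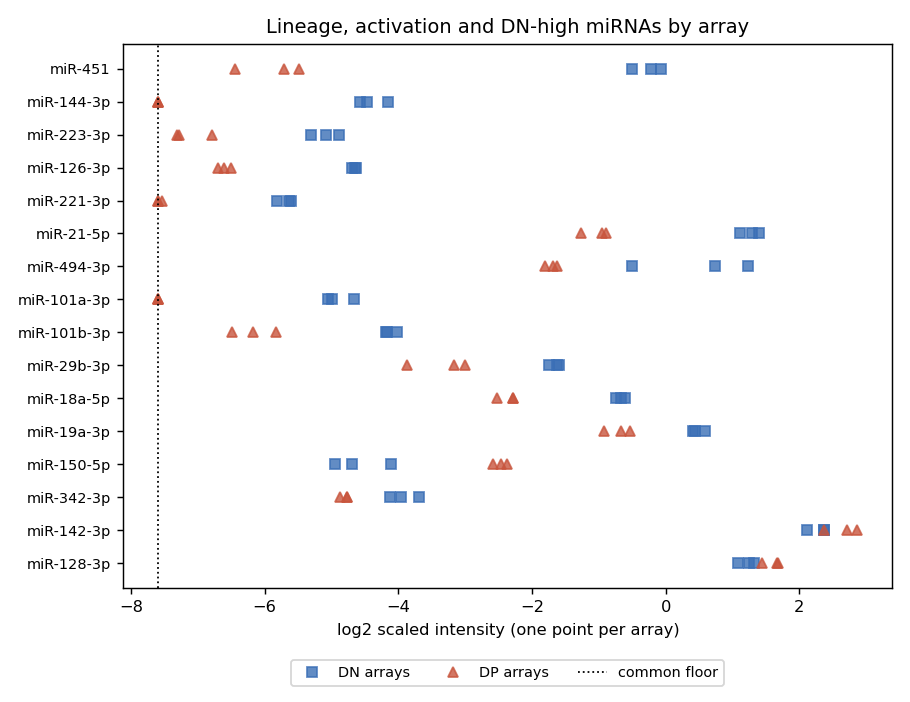
Log2 scaled intensity of 16 miRNAs on each DN (squares) and DP (triangles) array, with the common floor at -7.59 dotted. miR-451 lies between -0.50 and -0.06 on the DN arrays and between -6.45 and -5.49 on the DP arrays, and miR-144-3p and miR-101a-3p are at the floor on each DP array.

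Further miRNAs higher in DN belonged to none of these groups. miR-494-3p read 0.74, -0.50 and 1.23 in DN and -1.69, -1.62 and -1.81 in DP, 4.58-fold higher in DN (-2.20, SE 0.40, limma adjusted p = 0.00228). DN 2 was clearly lower than the other DN arrays, though above each DP array, and within slide 2 the call was lost (adjusted p = 0.0935). miR-494 lies in the Dlk1-Dio3 imprinted cluster on chromosome 12, as do miR-539-5p and miR-3072-5p by their RefSeq loci. miR-539-5p was detected on all 3 arrays of DP only and called higher in DP (1.70), and miR-3072-5p differed by 0.12 and was not called. The list made for this cluster, which left these 2 out, held 79 names on the array. Of those, 76 were detected on none of the 6 arrays. Its only member besides miR-494-3p was miR-370-3p, which differed by 0.24 and was not called. miR-211-5p read -5.75, -5.91 and -5.71 in DN and stood at the floor in DP, at least 3.28-fold higher in DN (limma adjusted p = 0.00476). Its difference was -0.80 with the floor raised by 1 (adjusted p = 0.0927) and -0.70 with normexp (0.0598), and neither was called. miR-362-3p and miR-362-5p, the arms of one hairpin in Clcn5 on chromosome X, were both higher in DN, by 1.99-fold and at least 1.48-fold. miR-362-5p was not called with the floor raised by 1, where its groups were level, or with normexp (-0.47, adjusted p = 0.130).

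miR-714 (difference -1.56), miR-324-5p (-1.11), miR-3102-5p (-1.07) and miR-33-5p (-1.01) were also called higher in DN, each with groups that did not overlap. Of these, miR-33-5p lies in an intron of Srebf2 and acts on cholesterol export. miR-714 lost its call without DN 1, DN 2, DP 1 or DP 3 (adjusted p from 0.0591 to 0.131), miR-3102-5p without any 1 thymocyte array but DP 2 (0.0527 to 0.0676) and miR-33-5p likewise (0.0591 to 0.112). miR-31-5p, which acts on T-cell receptor signalling, and miR-221-3p, which targets Kit and Cdkn1b, were detected on all 3 arrays of DN only. They were at least 6.14-fold and at least 3.49-fold higher in DN (differences -2.70 and -1.89). Neither was called (limma adjusted p = 0.142 for both). Their groups did not overlap, and the limma fit of the 6 thymocyte arrays alone gave adjusted p values of 9.82e-05 and 5.53e-05.

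The names of the miR-669, miR-467, miR-466 and miR-297 groups belong to a large repeated group of miRNA genes, many of which lie in an intron of Sfmbt2. miR-669n has its RefSeq locus elsewhere, at chr3:115979902-115979955 within Slc30a7, and the RefSeq mature sequences of miR-466q, miR-466j, miR-467f and miR-466i-3p also lie on other chromosomes than Sfmbt2. The loci of the other names were not checked. Of 61 such names on the array, 29 were members, 15 detected on all 6 arrays and 14 on all 3 arrays of DP only. There were 12 called, each higher in DP. Since the 14 could only enter through DP, the 15 are given apart. Of them, 3 were called higher in DP and 0 higher in DN, with a median difference of 0.31. Over all tested miRNAs, 19.4% were called higher in DP and 10.1% higher in DN, so the 3 of 15 lie near the general share. Arrays of those 15 lay higher in DP without overlap for 10 and higher in DN for 3, where 33.6% of the tested miRNAs were so placed towards DP and 37.7% towards DN.

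miR-669n read -4.25, -4.43 and -4.46 in DN and -2.20, -2.06 and -1.55 in DP, 5.45-fold higher in DP (2.45, SE 0.54, limma adjusted p = 0.00641). miR-466i-5p read -0.70, -0.99 and -1.42 in DN and 0.14, 0.12 and 0.37 in DP (1.25, SE 0.39, limma adjusted p = 0.0364). miR-669l-5p was at least 4.0-fold higher in DP. In each the groups did not overlap. miR-466i-5p lost its call without any 1 of DN 2, DN 3, DP 1, DP 2, DP 3 or LS 1 (adjusted p from 0.0509 to 0.127), and miR-669l-5p without DP 3 (0.0665).

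Among the names detected on all 3 arrays of DP only, miR-466m-5p read -6.66, -7.05 and -7.27 in DN and -4.05, -3.83 and -3.33 in DP, at least 9.56-fold higher. miR-669e-5p was at least 8.43-fold higher, miR-669k-5p at least 7.74-fold, miR-466j at least 7.50-fold and miR-669o-5p at least 6.85-fold. miR-669k-5p, miR-466j and miR-669o-5p stood at the floor on each DN array. Among the 15 names detected on all 6 arrays, the 3 called were 2 of 7 ending in 5p, 0 of 5 ending in 3p and 1 of 3 with no arm in the name. Members of near-identical sequence can share probes' signal, so values of single names are uncertain. With normexp background correction, miR-466j, miR-669f-5p, miR-669k-5p, miR-669o-5p, miR-669l-5p, miR-466c-5p and miR-466f-5p were not called, and miR-466f-5p took a difference of -0.07. Over the 32 other settings, the lowest log2 differences were 0.94 for miR-466m-5p and 0.69 for miR-669e-5p.

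**Figure D4:**
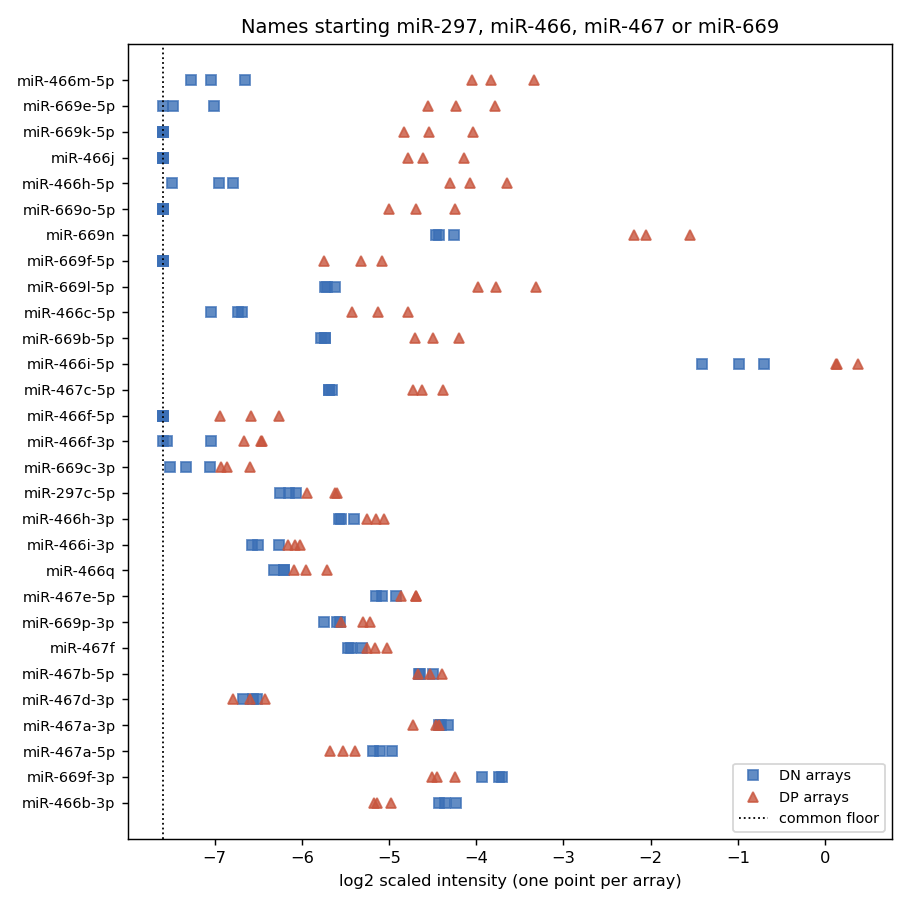
Log2 scaled intensity of the 29 members of the miR-669, miR-467, miR-466 and miR-297 groups on each DN (squares) and DP (triangles) array, ordered by their difference, with the common floor at -7.59 dotted. The 12 called names lie towards the top with DP to the right, and the names at the bottom, such as miR-466b-3p, have DN to the right.

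A set of miRNAs that share a hexamer was picked after their values had been seen, so its values are a description with no test. The hexamer GUGUGU, searched on the mature strand, occurs in 17 of 1679 RefSeq mouse mature sequences (1.01%), in 13 of the 881 array miRNAs with a sequence and in 10 of the 168 members with one. Of the 13, 2 were detected on none of the 6 arrays. Of the 10 members, 6 were detected on all 3 arrays of DP only, so that their direction was favoured by how members were chosen. The other 4 were detected on all 6 arrays and were all called higher in DP, with differences from 1.67 to 2.45. Of the 122 members with a sequence, detected on all 6 arrays and without the hexamer, 16 were called higher in DP and 13 higher in DN. Its reverse complement, ACACAC, was in 4 members, of which 0 were called higher in DP and 1 higher in DN.

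miR-672-5p had the largest difference on the DP side, at -7.30, -7.59 and -7.36 in DN and -3.95, -3.71 and -3.14 in DP, at least 13.2-fold higher in DP (limma adjusted p = 0.000224). miR-32-3p read -6.06, -6.48 and -6.32 in DN and -3.14, -3.02 and -2.46 in DP, at least 10.6-fold higher (limma adjusted p = 0.000833). miR-294-3p, known from embryonic stem cells, was at least 5.60-fold higher and miR-206-3p, known from muscle, at least 4.23-fold higher. All 4 had DN arrays that did not reach the level of any DP array. Over the 32 other settings, the difference of miR-672-5p went as low as 1.10, from 3.81 in the main fit. That of miR-32-3p went as low as 1.43, from 3.41.

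The 4 miRNAs of this set detected on all 6 arrays were miR-669n, miR-3082-5p, miR-1187 and miR-574-5p. miR-3082-5p read -3.05, -3.41 and -3.76 in DN and -1.50, -1.38 and -1.01 in DP, 4.32-fold higher in DP (limma adjusted p = 0.00903). miR-1187 read -3.28, -3.57 and -3.90 in DN and -1.89, -1.79 and -1.44 in DP, 3.66-fold higher (limma adjusted p = 0.00384). miR-574-5p read -2.33, -2.55 and -2.91 in DN and -1.09, -1.0 and -0.69 in DP, 3.18-fold higher (limma adjusted p = 0.0133). In each the groups lay apart, with DN 3 the lowest array and DP 3 the highest. miR-574-5p lost its call without DN 3 (adjusted p = 0.0527) or DP 3 (0.0574).

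The 9 of the 10 with a RefSeq hairpin locus, all but miR-466j, lie on 8 chromosomes. Examples are miR-672 at chrX:104116175-104116274 within Nexmif, miR-32 at chr4:56895229-56895298 within Tmem245 and miR-206 at chr1:20679010-20679082. For 6 of them the other arm is on the array. miR-206-5p, miR-294-5p, miR-3082-3p, miR-574-3p and miR-672-3p were detected on none of the 6 arrays, and miR-32-5p on 2 DN arrays and 1 DP array. The 4 array miRNAs with the seed of miR-294-3p, which are miR-291a-3p, miR-295-3p, miR-302b-3p and miR-302d-3p, were also detected on none of the 6. Beside these values, 5 viral miRNA names were detected on all 3 DP arrays and on 0 DN arrays, as given further on.

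**Figure D5:**
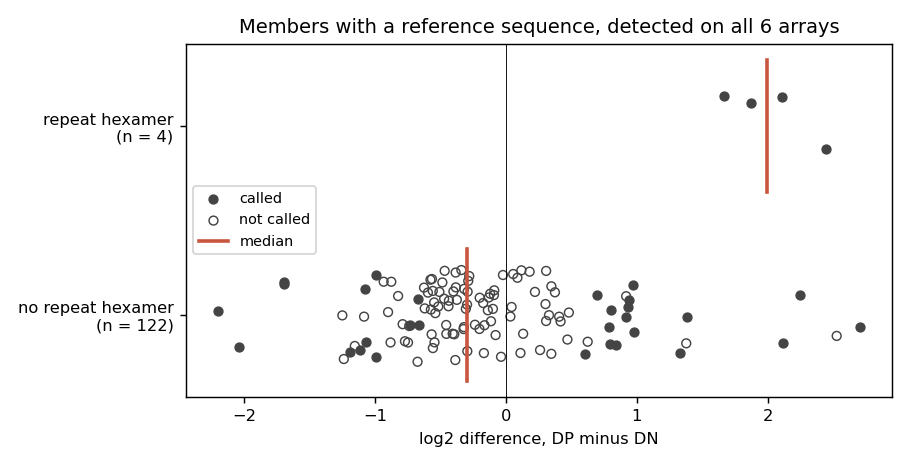
Log2 differences (DP minus DN, x axis) of the members with a RefSeq sequence that were detected on all 6 arrays, in 1 row for those with the repeat hexamer (n = 4) and 1 for those without (n = 122), filled where called, with the median as a bar and vertical position within a row random. The 4, picked after their values were seen, lie between 1.67 and 2.45, and the medians are 1.99 and -0.29.

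Other members called higher in DP belong to no family described above. Whether miR-1839-3p and miR-468-3p hold the hexamer was not checked, since no RefSeq sequence matched them. miR-690 read -2.06, -2.12 and -2.16 in DN and -0.82, -0.69 and -0.67 in DP, 2.62-fold higher (limma adjusted p = 0.000628). miR-1839-3p read -3.10, -2.89 and -2.95 in DN and -1.66, -1.72 and -1.68 in DP, 2.45-fold higher (limma adjusted p = 0.000764). The groups of both were apart, and scaling over all mouse miRNAs ended the call of miR-690 (adjusted p = 0.0794). miR-130a-3p was at least 1.90-fold higher in DP (limma adjusted p = 0.00208), while miR-130b-3p, miR-301a-3p and miR-301b-3p of the same family were not called, and with normexp background correction its difference was -0.14. miR-468-3p was 9.22-fold higher in DP (limma adjusted p = 0.00119).

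The miRNAs with the smallest differences among those detected on all 6 arrays included miR-219-5p (0.03, 95% interval from -0.32 to 0.37), miR-484 (0.04, from -0.38 to 0.45) and miR-3473 (-0.01, from -0.49 to 0.46). Their DN and DP arrays overlapped.

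Both arms of one hairpin were members for 18 pairs. In 8 of these both arms were detected on all 6 arrays, and in each of the 8 the differences of the arms had the same sign. Both arms were called in 2 of the 8, namely miR-181a-1-3p with miR-181a-5p and the arms of miR-30e, each pair higher in DP, and 1 arm in 4. In the other pairs at least 1 arm was detected on all 3 arrays of 1 group only, which favours its direction. Among those, the arms had opposite signs for miR-7a-1, with miR-7a-5p called at -0.99 and miR-7a-1-3p not called at 0.16, and for miR-20b, with neither arm called.

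By seed, the 168 members with a sequence had 134 distinct seeds, and 8 seeds were held by 3 or more members. In 3 of the 8, most members were called higher in DP and 0 higher in DN, where 19.4% of the tested miRNAs were called higher in DP. These were 3 of 4 with the miR-181 seed, 3 of 4 with the miR-15/16 seed and 2 of 3 with the miR-30 seed. With scaling over all mouse miRNAs, the calls of the miR-15/16 and miR-30 seeds and of miR-181c-5p were lost. The seed of miR-17-5p, held by 5 members, had 0 called, at a median of -0.56, where 29.5% of the tested miRNAs were called.

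The rule on detection left members close to its edge. Of the members, 19 were detected on 3 arrays of one group and 2 of the other, and 32 on 3 arrays of one group and 0 of the other. Just outside were 27 miRNAs detected on 2 arrays of a group and on 3 of neither. Among these, miR-146a-5p, an activation miRNA, had means of -6.77 in DN and -7.59 in DP, and miR-15a-3p had -7.59 in DN and -6.63 in DP.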

How the data were processed

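MicroRNAs of sorted DN and DP thymocytes were read on 1-colour Agilent arrays (Cy3), under miRBase release 18 names. Per the file headers, Agilent Feature Extraction 10.7.3.1 gave each spot a background-subtracted intensity, which the deposited scanner files hold without scaling between arrays. The authors' deposited value table is on the log2 scale. Against the total intensity per miRNA in the scanner files, each of its columns had a Spearman correlation of 1, and all columns had a median of 3.29; it served as an alternative. RMA, affy, MAS5 and GCOS appear in the submitters' processing notes, with neither version nor role.

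Control spots were left out, and so were outlier spots (4.03 to 8.60% of the non-control spots per array). Of 49324 spots, 47160 were not controls. Intensities were averaged per probe and per miRNA, divided by each array's 75th percentile over the 108 miRNAs that stood well above background on each of the 12 primary arrays, given a common floor and put on the log2 scale. The 268 miRNAs detected on all 3 arrays of at least 1 of 4 groups were fitted in limma 3.58.1 (R 4.3.3; files read with version 1.17.8 of the R package data.table) (lmFit and eBayes, a mean for each group). The limma test over 12 arrays has 8 residual degrees of freedom, before moderation. M295 has 1 array and was left out. Slide 1 held DN 1 and DP 1, slide 2 the other DN and DP arrays, both with leukaemia arrays. The number of arrays limits the precision.

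Named were, among called members detected on all 6 arrays without overlap, the 12 largest differences in each direction; among called members detected in 1 group only, the 6 largest in each direction; the members of the lists; and the 5 smallest differences. The called miR-16-1-3p, miR-16-2-3p, miR-195-3p, miR-181a-1-3p, miR-30e-3p, miR-362-3p and miR-7a-5p, the remaining hexamer miRNAs and the miRNAs outside the detection rule were named after their values were seen where that rule did not reach them. The members and lists were chosen with earlier results of these data known. Methods were tested on simulated data. Alternatives changed the scaling, background correction, filter, floor, arrays, slide and replicate block. normexp used the median spot signal, since the files used hold no mean signal.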

Additional observations from a re-analysis of the deposited data

Results flagged for a closer look

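The arrays also carry 57 names of viral miRNAs, which no comparison above used. Of these, 8 were detected on all 3 arrays of DN or of DP, which singled them out as signal outside the main measurement. mcmv-miR-M23-1-5p, mcmv-miR-m88-1 and mghv-miR-M1-2-3p were detected on all 3 arrays of both groups. mcmv-miR-m01-2, mghv-miR-M1-11-5p, mghv-miR-M1-2-5p, mghv-miR-M1-6 and mghv-miR-M1-8 were detected on all 3 DP arrays and on 0 DN arrays, and of these 5 only mghv-miR-M1-2-5p was detected on a leukaemia array, on 1 of 6.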

How the results depend on the processing

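The number of miRNAs called, 79 of 268 (52 higher in DP, 27 higher in DN), moved with the arrays in the fit and the background correction. On the 6 DN and DP arrays alone 176 were called (86 and 90). Added after seeing the data, the 6 arrays with slide as a block gave 175 (83 and 92), with a replicate block 191 (86 and 105), and without DN 3 170 (82 and 88). normexp gave 42 (25 and 17), slide 1 alone 35 (29 and 6), slide 2 alone 139 (70 and 69). Higher in DN were 13 with no filter and 16 without both DN 3 and ES 1 (also added). With 1 array left out in turn, 54 to 114 were called, 41 to 61 higher in DP and 13 to 53 higher in DN. No miRNA called in both the main and another setting changed direction. The cause of these changes was not tested.

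Of the 128 named miRNAs under 32 settings, 4089 comparisons gave 3649 on the same side of the threshold with the same direction or no call, 171 calls lost, 267 gained and 2 reversed. The reversed were miR-130a-3p (-0.14) and miR-466f-5p (-0.068), both with normexp. Of the 52 called, 6 kept their call throughout (miR-101b-3p, miR-468-3p, miR-1187, miR-669e-5p, miR-466h-5p and miR-672-5p) and 15 lost it when 1 array was left out. No filter ended 18 calls, normexp 15 besides those reversed, scaling over all mouse miRNAs 13 and a higher floor 4. Calls lost on slide 1 alone, with 1 DN and 1 DP array, are among the 171. The difference in detected miRNAs kept its direction and missed the threshold throughout, as 3 against 3 arrays must.

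DN and DP share replicate numbers. Deviations of same-numbered arrays correlated at 0.0515, 0.478 and 0.255, not all over 0.1, so the number was not taken as pairing, although each array correlated best with its own number. The replicate block in the 12-array fit gave 74 calls (50 and 24), all among the 79, and among named miRNAs ended only the call of miR-144-3p (adjusted p = 0.0673).

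Signal over background limits 53 members to folds that are bounds. No array of their dimmer group was well above background, while at least 1 of the brighter group was. Members well above background on no array of either group, such as miR-190b-5p, were given no bound and are not among the 53.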
